A study of Homo sapiens with 6 samples.

Results

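The insulin and insulin-like growth factor (IGF) signalling set described here held 10 human genes, namely IRS1, IRS2, INSR, IGF1R, PIK3R1, PIK3R3, PIK3IP1, FOXO1, FOXO3 and FOXO4. They were taken by gene symbol, and each matched 1 identifier among the 61496 features counted. All 10 were among the 27514 features that passed the filter on low counts. The cells were U251, an established human glioma line grown in DMEM with serum, and RNA-seq gave 3 control libraries, from cells left untreated, and 3 libraries after a 2 h exposure to sevoflurane (Sev), an inhaled anaesthetic. The treatment protocol lists Sev gas at 1.7, 3.4 and 5.1%, and the sequenced Sev cells are described as treated at 5.1%, while the labels of the single libraries give no concentration. The labels also do not say whether libraries of a group came from separate cultures, so p-values measure the spread between these libraries, which may be technical.

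Insulin and IGF bind the receptor tyrosine kinases INSR and IGF1R, which phosphorylate the insulin receptor substrates IRS1 and IRS2. The substrates recruit phosphoinositide 3-kinase (PI3K) through its regulatory subunits, PI3K activates AKT, and AKT phosphorylates the FOXO transcription factors and keeps them out of the nucleus. When the pathway is quiet, nuclear FOXO proteins activate genes of cell cycle arrest, stress resistance and metabolism, and in several tissues they also raise INSR and IRS2, a known feedback loop.

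The libraries held between 38624292 and 46318311 assigned counts, and the first principal component, with 69% of the variance, separated the groups. The next component, with 10%, separated Sev 2 from Sev 3. Levels are given as CPM (counts per 1e+06 assigned reads) after TMM scaling, which sets the libraries on a common scale, and a gene was called where the quasi-likelihood test of edgeR gave a p below 0.05 after Benjamini-Hochberg adjustment over all features tested. VIM and NES, which U251 is known to express, averaged 5485 and 1465 CPM in the control. The astrocyte markers GFAP and SLC1A3 were expressed, at means of 270 and 107 CPM in the control and 275 and 110 after Sev. AQP4 and ALDH1L1, markers of mature astrocytes, were at or below 0.201 CPM in each group's mean. The summed CPM of 12 glial and U251 markers ran from 7956 to 8889 in the control and from 8999.5 to 9518 after Sev, most of it VIM. Of the 10 tested, CD44 was called higher, and SOX2 (286 to 173 CPM), S100B (22.2 to 10.3 CPM) and OLIG2 (2.39 to 0.598 CPM) were called lower. The summed CPM of 8 immune markers ran from 3.53 to 6.08 in the control and from 8.63 to 10.6 after Sev. Of the 2 tested, CD14 was called higher (1.34 to 4.97 CPM), and CD3E, AIF1 and TYROBP were at 0 counts throughout. The sum of 7 endothelial markers ran from 40.1 to 42.6 and from 53.3 to 66.6, with EMCN at 0. Of the 5 tested, KDR (32.3 to 46.4 CPM), CLDN5 (1.19 to 2.62) and PECAM1 (0.693 to 1.31) were called higher. The sum of 7 neuron markers ran from 143 to 168 and from 193 to 202, with ELAVL4 at 0. Of the 6 tested, TUBB3 was called higher (84.2 to 135 CPM). The ranges of 8 epithelial markers (36.9 to 49.8 and 36.8 to 51.0) and 8 fibroblast markers (529.5 to 643 and 369.8 to 828) overlapped. Of the 3 epithelial markers tested, KRT18 was called higher (20.9 to 29.4 CPM), and none of the 4 fibroblast markers tested was called. The part of these marker genes in the results was not tested.

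Of the 10 genes, 4 were higher after Sev, 0 were lower and 6 did not pass the test. In the background of all features, 22.1% were called higher and 21.5% lower, and in protein-coding genes 25.0% and 21.0%. Counted in either direction, 4 of 10 members were called, beside 43.7% of all features and 45.9% of protein-coding genes. The members called were thus about as many as in the background and all in the higher direction, and no test over the list was made. IRS1 and IRS2 were the 2 members that also passed a log2 fold change of 1 with an unadjusted p below 0.05, a rule met in the higher direction by 11.4% of all features and 9.07% of protein-coding genes, and in the lower direction by 12.0 and 7.62%, with 0 members. The median log2 fold change of the 10 was 0.28, against -0.01 for all features and 0.04 for protein-coding genes. With scaling by library size alone, all features shifted to a median of -0.15 and the 10 genes to 0.13, so changes near 0 below are relative to the scaling. In 5 members every Sev library lay above every control library (28.3% of all features and 31.2% of protein-coding genes), in 1 every Sev library lay below (28.2 and 26.6%), and in 4 the groups overlapped.

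**Figure D1:**
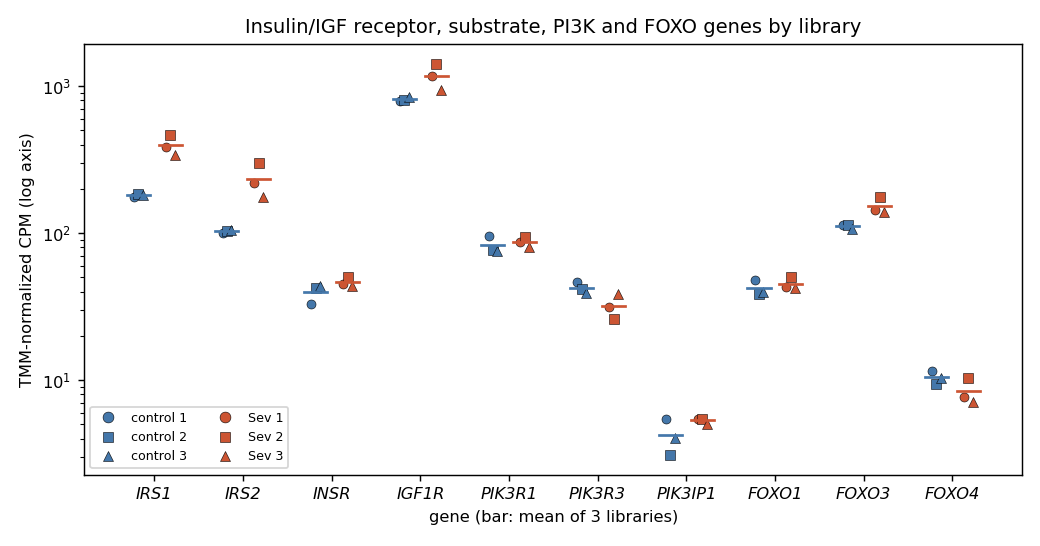
TMM-scaled CPM of the 10 genes (log axis) in the 3 control libraries (blue) and 3 Sev libraries (red), with 1 point shape per library number and a bar at each group's mean. IRS1 and IRS2 stood clear of their controls in all 3 Sev libraries, FOXO3 and IGF1R by less, and FOXO1, FOXO4, PIK3R1 and PIK3IP1 overlapped.

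The insulin receptor substrates changed most. IRS1, the docking protein that links the receptors to PI3K, was at 177, 184 and 182 CPM in the 3 control libraries and at 383, 465 and 339 CPM in the 3 Sev libraries. Every Sev library was above every control library, and Sev 2 was the highest. The mean went from 181 ± 3.86 to 396 ± 64.1 CPM (SD, n = 3 each), a 2.2-fold rise, or a log2 fold change of 1.13 (SE 0.118, 95% interval 0.86 to 1.40, adjusted p = 0.000372). IRS1 lies on the minus strand of chromosome 2 (chr2:226731317-226799759, GRCh38). IRS2, the substrate best known in liver and beta cells, was at 99.5, 104 and 105 CPM in the control and at 220.3, 302 and 177 CPM after Sev. The groups did not overlap, and Sev 2 was again the highest. Its mean rose 2.27-fold, from 103 ± 2.96 to 233 ± 63.3 CPM (SD, n = 3 each), with a log2 fold change of 1.18 (SE 0.176, interval 0.78 to 1.59, adjusted p = 0.00155). IRS2 is a minus-strand gene of chromosome 13 (chr13:109752698-109786568). Each library averages over many cells, so a rise in every cell and a larger rise in some cells cannot be told apart. Both calls held with each library left out in turn, with log2 fold changes from 1.0 to 1.23 for IRS1 and from 0.96 to 1.35 for IRS2.

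Because IRS1 and IRS2 rose together, the 250 bases before their RefSeq starts are shown, from chr2:226799821-226800070 and chr13:109786584-109786833, both minus strand (RefSeq, GRCh38.p14). Capitals mark the GC box GGGCGG, a binding motif of SP family factors, or its reverse complement CCGCCC, and overlapping boxes run together.
IRS1: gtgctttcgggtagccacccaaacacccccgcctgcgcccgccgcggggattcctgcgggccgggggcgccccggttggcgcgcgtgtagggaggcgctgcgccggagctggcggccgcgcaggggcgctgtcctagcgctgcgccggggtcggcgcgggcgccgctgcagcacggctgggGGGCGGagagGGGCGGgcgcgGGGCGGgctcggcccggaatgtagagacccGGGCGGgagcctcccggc
IRS2: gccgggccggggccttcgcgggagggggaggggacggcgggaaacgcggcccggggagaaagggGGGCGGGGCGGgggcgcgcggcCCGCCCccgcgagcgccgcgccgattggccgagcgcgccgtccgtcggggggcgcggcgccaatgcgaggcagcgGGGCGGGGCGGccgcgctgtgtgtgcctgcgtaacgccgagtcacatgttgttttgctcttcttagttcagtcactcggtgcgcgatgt
The IRS1 stretch held 4 boxes and the IRS2 stretch 5. The motif stood in 12 of the 22 RefSeq promoter windows of the members, each from 250 bases before to 50 after a start, and in 45.0% of all 35116 such windows. The GC content of the IRS1 and IRS2 windows was 79.3 and 75.7%, against a median of 58.7% over all windows. The box stood in windows of 8 of the 10 members, among them INSR, which was not called and had 78.3% GC. The GC box was picked as a motif after the data had been seen, and a match is only a description of these letters.

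The receptors moved less. IGF1R, the receptor for IGF1 and IGF2 (chr15:98648539-98964530, plus strand), was the most abundant member per transcript length. It was at 797, 809 and 842 CPM in the control and at 1179.8, 1426 and 940.1 CPM after Sev, so the groups were separate but Sev 3 came close to the control range. The mean rose 1.45-fold, from 816 ± 23.6 to 1182 ± 243 CPM (SD, n = 3 each), with a log2 fold change of 0.53 (SE 0.144, interval 0.20 to 0.87, adjusted p = 0.0189). This call was the least stable of the 4. The adjusted p was 0.0601 without control 1, 0.0534 without control 2, 0.0508 without control 3 and 0.0526 without Sev 1, with log2 fold changes of 0.51, 0.52, 0.55 and 0.54. INSR, the insulin receptor (chr19:7112255-7294034, minus strand), was at 33.1, 42.6 and 43.8 CPM in the control and 45.2, 49.9 and 43.9 CPM after Sev. The highest control library and the lowest Sev library differed by under 1 CPM. The mean was 39.8 ± 5.86 in the control and 46.4 ± 3.17 CPM after Sev (SD, n = 3 each), and the log2 fold change of 0.22 (SE 0.124, interval -0.07 to 0.51, adjusted p = 0.188) did not pass the test.

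The PI3K subunits and their inhibitor gave no call. PIK3R1 (chr5:68215720-68301821, plus strand) encodes p85-alpha, the main regulatory subunit. It was at 96.2, 76.3 and 75.5 CPM in the control and 86.6, 93.8 and 80.8 CPM after Sev, with overlapping groups. Its log2 fold change was 0.08 (SE 0.116, interval -0.19 to 0.34, adjusted p = 0.627). PIK3R3 (chr1:46040140-46133036, minus strand) encodes p55-gamma, a shorter regulatory subunit. It was at 46.3, 41.9 and 39.3 CPM in the control and 31.2, 26.0 and 38.6 CPM after Sev, and Sev 3 was just under the lowest control. It was the member whose Sev libraries all lay below the controls. The log2 fold change was -0.41 (SE 0.149, interval -0.76 to -0.07), with an unadjusted p of 0.0249 and an adjusted p of 0.0554. Without Sev 3 the log2 fold change was -0.57 and the adjusted p 0.0140, and without Sev 2 they were -0.28 and 0.124. The other libraries left out gave an adjusted p of up to 0.148 (without control 1). With library size alone they were -0.55 and 0.0317. PIK3IP1 (chr22:31281593-31292534, minus strand), a membrane protein that inhibits the PI3K catalytic subunit, had the fewest counts of the 10, from 122 to 231 per library. It was at 5.46, 3.08 and 4.06 CPM in the control and 5.47, 5.43 and 5.02 CPM after Sev, with overlapping groups and a log2 fold change of 0.34 (SE 0.217, interval -0.17 to 0.84, adjusted p = 0.244).

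Of the FOXO factors, FOXO3 was called. FOXO3 (chr6:108559835-108684774, plus strand), the most abundant of the 3, was at 113, 113 and 107 CPM in the control and 143, 177 and 138 CPM after Sev. All 3 Sev libraries were above all controls. The mean rose 1.37-fold, from 111 ± 3.23 to 153 ± 21.3 CPM (SD, n = 3 each), with a log2 fold change of 0.46 (SE 0.106, interval 0.21 to 0.70, adjusted p = 0.0102). The call held without each library in turn, with adjusted p from 0.010 to 0.0459. FOXO3B, a processed copy of FOXO3 on chromosome 17 with counts equal to 18.2 to 23.6% of those of FOXO3, rose from 21.6 to 31.0 CPM (log2 fold change 0.52, SE 0.0965, adjusted p = 0.00403). How reads shared by the pair were assigned is not given in the sources used here, so both values are uncertain. FOXO1 (chr13:40469953-40666597, minus strand), the FOXO of insulin-controlled glucose metabolism, was at 47.9, 38.7 and 39.8 CPM in the control and 42.9, 50.4 and 42.1 CPM after Sev. Its groups overlapped, and the log2 fold change was 0.10 (SE 0.118, interval -0.18 to 0.37, adjusted p = 0.533). FOXO4 (chrX:71096197-71103535, plus strand) was at 11.6, 9.36 and 10.3 CPM in the control and 7.70, 10.4 and 7.04 CPM after Sev. Sev 2 lay among the controls and the other Sev libraries below them. The log2 fold change was -0.32 (SE 0.178, interval -0.73 to 0.10, adjusted p = 0.186), and without Sev 2 it was -0.50 with an adjusted p of 0.0367. Without Sev 3 it was -0.20 with an adjusted p of 0.408.

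**Figure D2:**
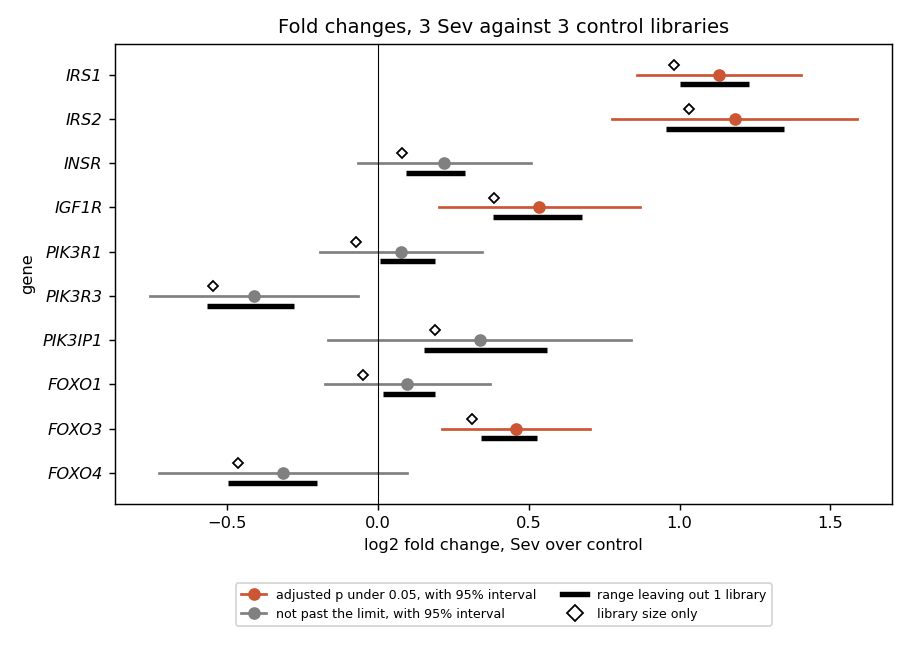
Log2 fold change (Sev over control) of each gene with its 95% interval, in red where the adjusted p was below 0.05; black bars give the range with 1 library left out and open diamonds the value with library size alone. IRS1 and IRS2 lay near 1.13 and 1.18, FOXO3 and IGF1R near 0.46 and 0.53, and the interval of PIK3R3 (-0.76 to -0.07) lay below 0 although its adjusted p was 0.0554.

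Most members stood in a similar order among the Sev libraries. Sev 2 had the highest level of the 3 Sev libraries for 8 of the 10 genes, and Sev 3 the lowest for 9, whereas over all features Sev 2 was highest in 37.5% and Sev 3 lowest in 35.4%. PIK3R3 went the other way, being lowest in Sev 2 and highest in Sev 3.

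Levels of different genes were compared per transcript length, in the deposited FPKM. In the control the order was IGF1R (48.5 to 51.2 FPKM), IRS1 (15.4 to 15.5), FOXO3 (11.9 to 12.8), IRS2 (10.6 to 10.9), PIK3R1 (5.93 to 7.79), FOXO1 (5.06 to 6.52), PIK3R3 (4.50 to 5.44), INSR (2.65 to 3.42), FOXO4 (2.06 to 2.65) and PIK3IP1 (0.661 to 1.24). PIK3R1 and FOXO1 overlapped, as did FOXO1 and PIK3R3, and the other neighbours in the order were separate. After Sev IGF1R stayed first (53.7 to 76.0 FPKM) and IRS2 (17.3 to 27.5) passed FOXO3 (14.3 to 17.2), and its range met that of IRS1 (27.1 to 34.7). PIK3R3 (2.61 to 4.15) then overlapped INSR (3.22 to 3.42).

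Related genes were also set against each other within each library, as a ratio of FPKM values, which does not depend on how libraries are scaled. FOXO4 over FOXO3 was 0.207, 0.168 and 0.195 in the control and 0.109, 0.119 and 0.103 after Sev. All Sev ratios were below all control ratios, by 0.78 on the log2 scale. FOXO1 over FOXO3 was 0.509, 0.412 and 0.445 against 0.360, 0.341 and 0.366, again without overlap and with a difference of -0.35. PIK3R3 over PIK3R1 was 0.697, 0.797 and 0.756 against 0.522, 0.402 and 0.694, where the highest Sev ratio nearly met the lowest control ratio, and differed by -0.51 (-0.32 without Sev 2 and -0.71 without Sev 3). Each of these 3 pairs reached 0.1, the smallest p that an exact two-sided permutation test of 3 against 3 libraries can give (adjusted p = 0.167 over the 5 pairs), so this test could not give a p below 0.05. The 2 remaining ratios overlapped between the groups. IGF1R over INSR was 18.7, 14.8 and 15.0 in the control and 20.3, 22.2 and 16.7 after Sev (difference 0.29, exact permutation p = 0.2). IRS2 over IRS1 was 0.687, 0.686 and 0.707 and then 0.702, 0.792 and 0.638 (difference 0.03, exact permutation p = 0.8).

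**Figure D3:**
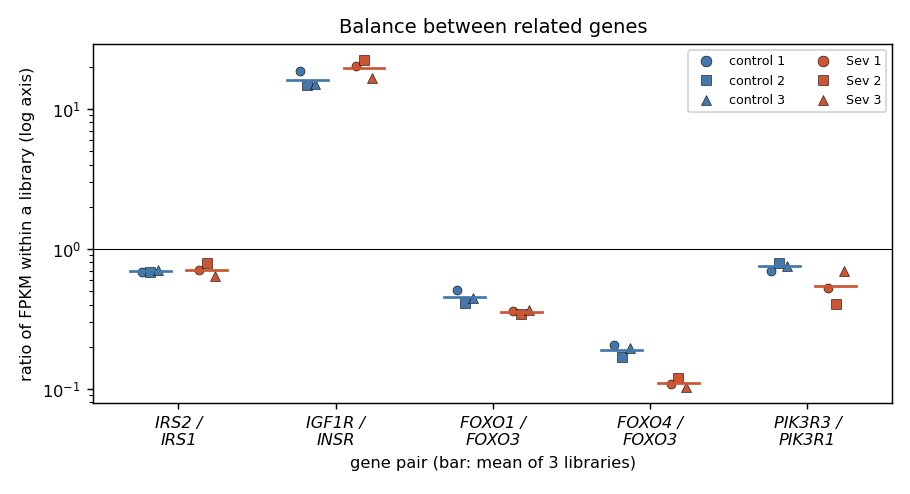
Ratio of FPKM values of related genes within each library (log axis), for 3 control and 3 Sev libraries, with points for libraries and a bar at each group's mean. FOXO1 and FOXO4 over FOXO3 and PIK3R3 over PIK3R1 were lower in every Sev library, while IRS2 over IRS1 overlapped.

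FOXO proteins bind the core GTAAACA (reverse complement TGTTTAC), which was looked for on both strands of the members' promoter windows. It stood in 2 of the 22 windows, those of FOXO4 and PIK3IP1, and in 3.42% of all 35116 windows. The matches are shown with flanks, in capitals, since they were the only ones found, from chrX:71095863-71095892 (plus strand) and chr22:31292454-31292483 (minus strand), GRCh38.p14 from RefSeq.
FOXO4: cccggcgagtgGTAAACAgagacgtcagga
PIK3IP1: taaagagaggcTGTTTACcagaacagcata
Both lay just after a start, at base 24 and base 17. The windows of IRS1 and IRS2 did not hold these letters, and neither FOXO4 nor PIK3IP1 passed the test. The shorter core TAAACA stood in 5 member windows of 5 genes and in 12.3% of all windows. Other letters that FOXO proteins may bind were not looked for, in the IRS1 and IRS2 windows or elsewhere.

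The other genes of the pathway were taken from 6 lists, with 194 of 210 list entries tested (IGFBP1, untested, stands in 2 lists). Of these, 49 were higher and 32 lower, read against the same backgrounds of 25.0 and 21.0% of protein-coding genes. Of 16 tested ligands, binding proteins and related receptors, 5 were higher and 3 lower, with a median log2 fold change of -0.04. INSRR, an orphan receptor of the insulin receptor family, was at 0.473, 0.429 and 0.659 CPM in the control and 6.61, 4.47 and 7.90 CPM after Sev, a log2 fold change of 3.59 (SE 0.290, adjusted p = 0.000155), from 17 to 32 counts per control library. IGFALS, which carries IGF complexes in serum, went from 0.978 to 3.27 CPM (1.74, adjusted p = 0.000793). PAPPA, a protease that releases IGF from its binding proteins, fell from 84.7 to 62.9 CPM (-0.43, adjusted p = 0.00378), and IGFBP7 from 249.9 to 204 CPM (-0.29, adjusted p = 0.0304). The IGFBP7 call was lost without control 1, control 3, Sev 1 or Sev 3 (adjusted p = 0.0756, 0.0851, 0.0791 and 0.0795) and with a block on replicate number (0.0627).

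Of 38 tested adaptors and receptor-proximal regulators, 10 were higher and 5 lower, with a median of 0.15. PTPN1, the phosphatase PTP1B that dephosphorylates the insulin receptor, rose from 97.1 to 167 CPM (log2 fold change 0.78, adjusted p = 0.000285). NEDD4, a ubiquitin ligase, rose from 96.2 to 168 CPM (0.81, adjusted p = 0.00106). The adaptor SHC2 fell from 17.3 to 9.26 CPM (-0.90, adjusted p = 0.00912) and DOK1 from 10.6 to 7.01 CPM (-0.59, adjusted p = 0.0223), though DOK1 lost the call without control 3 or Sev 1 (adjusted p = 0.0737 and 0.0631). IRS4, a further substrate, had at most 5 counts in a control and 11 in a Sev library and was not tested.

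Among 11 other PI3K subunits 0 were higher and 3 lower, with a median of -0.23 (-0.37 with library size alone). PIK3R4, the regulatory subunit of the class III kinase, fell from 45.3 to 27.7 CPM (log2 fold change -0.71, adjusted p = 0.000476), and PIK3C2B, a class II kinase, from 14.1 to 7.53 CPM (-0.91, adjusted p = 0.00103). The catalytic subunits PIK3CA (0.04, adjusted p = 0.802) and PIK3CB (-0.23, adjusted p = 0.0682) and the regulatory subunit PIK3R2 (0.33, adjusted p = 0.109) did not pass. PIK3R2 passed without Sev 1 (0.47, adjusted p = 0.0223) and PIK3CB with library size alone (-0.37, adjusted p = 0.0115). PIK3CA passed as higher once trends on exon length and GC content were removed (0.32, adjusted p = 0.0463).

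Of 40 genes of the AKT arm, 11 were higher and 3 lower, with a median of 0.09. TBC1D4, an AKT substrate that controls glucose transporter traffic, rose from 15.7 to 32.3 CPM (log2 fold change 1.04, adjusted p = 0.00103), and RICTOR, a part of the TOR complex that phosphorylates AKT, from 90.2 to 137 CPM (0.61, adjusted p = 0.00188). AKT1 (-0.01, adjusted p = 0.930) and AKT2 (0.09, adjusted p = 0.425) did not pass. PPP2R5E, a subunit of the phosphatase PP2A, fell by 0.29 on the log2 scale (adjusted p = 0.0271), a call lost in 7 of 16 alternatives, among them each library left out except control 1 (adjusted p from 0.0567 to 0.0916).

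Of 40 FOXO regulators, 14 were higher and 5 lower, with a median of 0.19. SGK1, a kinase that phosphorylates FOXO3 at AKT sites, rose from 69.6 ± 9.04 to 438 ± 58.9 CPM (SD, n = 3 each), with a log2 fold change of 2.65 (SE 0.139, adjusted p = 4.2e-05). DYRK1A, which phosphorylates FOXO1, rose from 74.8 to 139.8 CPM (0.90, adjusted p = 0.000208). IKBKB, a kinase reported to act on FOXO3, fell from 60.2 to 32.2 CPM (-0.90, adjusted p = 0.00024), and HDAC4, a deacetylase that acts on FOXO, from 60.7 to 36.1 CPM (-0.75, adjusted p = 0.000685). FOXO6, the fourth FOXO gene, was at no more than 17 counts per library (log2 fold change -0.75, SE 0.827, adjusted p = 0.494).

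Of 49 tested FOXO target genes, 9 were higher and 13 lower, with a median of 0.04. The list was not split into genes that FOXO raises and genes that it lowers, and FOXO activity was not tested. TRIB1, a pseudokinase, rose from 32.8 to 118 CPM (log2 fold change 1.85, adjusted p = 1.6e-05), and GADD45A, a stress gene of cell cycle arrest and DNA repair, from 28.5 to 103 CPM (1.85, adjusted p = 0.000117). CDKN1B, the cell cycle inhibitor p27, fell from 53.8 to 22.2 CPM (-1.27, adjusted p = 0.000189), and CCNG2, the cyclin G2 of arrested cells, from 22.3 to 7.21 CPM (-1.63, adjusted p = 0.000279). These pathway genes show the members beside their surroundings, and nothing was tested about a list as a whole.

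**Figure D4:**
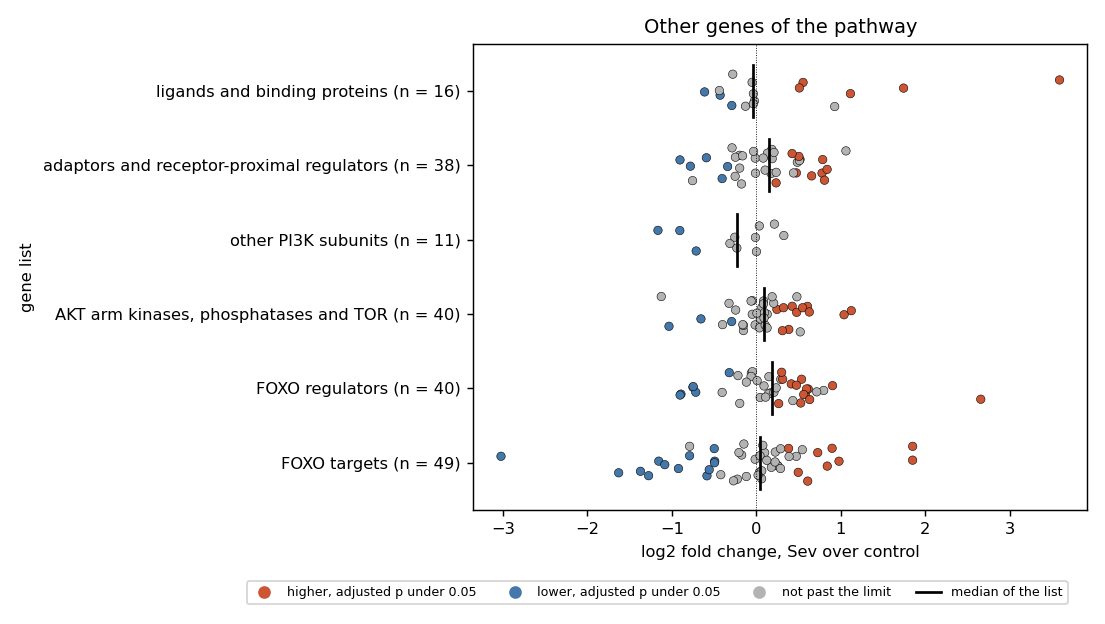
Log2 fold change (Sev over control) of every tested gene in 6 pathway lists, with black lines for the list medians; red and blue mark genes called higher and lower at an adjusted p below 0.05. Calls in both directions stood in 5 of the 6 lists, and the other PI3K subunits had 3 lower and 0 higher.

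The genes whose profiles over the 6 libraries were nearest to that of IRS1, by Euclidean distance of centred log2 CPM among 15179 protein-coding genes, were TLR4 (distance 0.122), RASSF8 (0.140) and PELI2 (0.141). Their log2 fold changes were 1.11, 1.18 and 1.21. Nearest to PIK3R3 were TRMT12 (0.0852), MAB21L2 (0.0974) and GRTP1 (0.138), with log2 fold changes of -0.41, -0.41 and -0.46, of which none had an adjusted p below 0.05.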

How the data were processed

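RNA of U251 cells was sequenced with strand-specific adapters, in 3 control and 3 Sev libraries. Per the labels, the processing notes name bcl2fastq 2.19, featureCounts and hg18; whether counting used strand is not given in the sources used here. The deposited tables hold read counts and FPKM values (scaled for transcript length and library size) per Ensembl identifier, as the authors made them. The identifiers belong to a later annotation than hg18 and the files hold no coordinates, so positions were joined by identifier from GENCODE on GRCh38. Promoter windows came from RefSeq (GRCh38.p14).

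The counts were tested with edgeR 4.0.16 (R 4.3.3) by the quasi-likelihood test after TMM scaling and filterByExpr, with Benjamini-Hochberg adjustment over 27514 features and no covariate. Adjusted p below 0.05 was called; the fold rule of the study (log2 fold change over 1, unadjusted p below 0.05) was also applied. Ratios of FPKM values were compared by exact two-sided permutation tests. Alternatives used DESeq2 1.42.0, limma 3.58.1 on log2(FPKM + 1) and log2(FPKM + 0.1), other scalings and filters, a replicate block and each library left out. The fit was tested on simulated data with the same spread set for all genes. Log2 changes of -0.5 and 0.5 were recovered in 52 and 66% of 50 genes each, and those of -1 and 1 in 100%. Changes of 0.5 or less can thus be missed. Total counts ran from 38624292 to 46318311 per library. The 10 genes and the gene lists were chosen with earlier results of these data known. Genes named are all members, the 2 of smallest p per direction and list, 8 fixed genes, features near a member, and the 3 nearest profiles. A result that the rule would name is not reported here. Same-numbered libraries of the groups deviated together with r of -0.10, -0.01 and 0.10 over 13156 features, and no source says that the numbers pair them. SOD2 had 2 identifiers, of which that with more counts was used.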

Additional observations from a re-analysis of the deposited data

How the results depend on the processing

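IRS1, IRS2, INSR and PIK3IP1 kept their direction and call in all 16 alternatives, FOXO3 in 15 and IGF1R in 11. The smallest log2 fold changes of IRS1 and IRS2 over the alternatives were 0.93 and 0.94, so neither met the fold rule in all of them. The FOXO3 call was lost with limma on log2(FPKM + 1) without a filter (adjusted p = 0.0523), where that of IGF1R was lost too (0.0892). With that setting 2 members were higher. PIK3R3 was called lower, making 1 member lower, with library size alone, with log2(FPKM + 1) and with log2(FPKM + 0.1). With a library left out, 3 to 4 members were higher and 0 to 1 lower. Signs near 0 turned with library size alone, log2(FPKM + 1), log2(FPKM + 0.1) and log2(FPKM + 1) without a filter. They became -0.0716, -0.0554, -0.0619 and -0.0554 for PIK3R1, -0.0495, -0.0383, -0.0436 and -0.0383 for FOXO1, -0.0564, -0.0513, -0.0576 and -0.0513 for AKT2, and -0.11, -0.10, -0.11 and -0.10 for PIK3CA. With a library left out, PIK3CA ran from -0.0349 to 0.128, AKT1 from -0.129 to 0.0694 and IRS2 over IRS1 from -0.0504 to 0.105, and with DESeq2 size factors AKT1 was 0.000641. Over all features, 6094 were higher and 5920 lower, against 4665 and 7502 with library size alone. 3676 and 3623 were higher with log2(FPKM + 1) and log2(FPKM + 0.1). By the fold rule, 3147 were higher and 3315 lower, against 1691 and 2148 with at least 10 counts in every library, 579 and 690 with log2(FPKM + 1), 579 and 691 without a filter, and 1476 higher with log2(FPKM + 0.1). The replicate block gave 5228 higher and 5021 lower features, 4 members higher and 0 lower, and changed no member's call, but ended those of IGFBP7 and PPP2R5E (adjusted p = 0.0627 and 0.0751). The motif TAAACA gave 5 windows of 5 members and GGGCGG 12 of 8. Of 22 other pathway genes called, 19 held in all 16 alternatives, and DOK1, IGFBP7 and PPP2R5E lost the call in 2, 5 and 7. Removing trends on exon length and GC content, an alternative chosen after the data were seen, changed no member's call. The causes were not tested. Features with few counts, such as IRS4 and FOXO6, are limited by depth.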

Other observations

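Features around the members were also counted. Of 16 annotated features that overlap a member or start within 5 kb of it, 12 were tested, 4 were higher and 1 was lower, beside a background of 22.1% and 21.5%. At IRS1, a long noncoding RNA on the opposite strand whose start lies 387 bases away (ENSG00000272622) was at 1.04, 1.03 and 0.762 CPM in the control and 2.23, 2.00 and 1.74 CPM after Sev, a log2 fold change of 1.07 (adjusted p = 0.00689). It rose beside IRS1 from 37 to 44 counts per control library to 69 to 84 per Sev library. ENSG00000261379, which starts 4277 bases from IRS1, had a log2 fold change of 1.23 and an adjusted p of 0.0465 from 7 to 32 counts per library, and lost the call with each library left out (adjusted p from 0.0539 to 0.118).

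At IGF1R, SYNM-AS1, a longer opposite-strand gene that overlaps only the 3′ end of IGF1R and starts 457285 bases from its start, rose from 2.25 to 5.03 CPM (log2 fold change 1.16, adjusted p = 0.00127), and a sense-intronic transcript inside IGF1R (ENSG00000278022) from 3.67 to 7.73 CPM (1.07, adjusted p = 0.00287), both beside the 0.53 of IGF1R. LINC00598, which overlaps FOXO1 on the same strand, fell from 3.36 to 1.84 CPM (-0.87, adjusted p = 0.00625), while FOXO1 did not pass the test. PIK3IP1-DT, which starts 35 bases from PIK3IP1 on the opposite strand, was at 0.780, 0.429 and 0.556 CPM in the control and 0.186, 0.319 and 0.353 CPM after Sev, a log2 fold change of -1.03 (SE 0.389, adjusted p = 0.0636). Since the use of strand in counting is not stated, reads of features overlapping a member on the opposite strand cannot be told apart from the member's. LINC00598 and ENSG00000278022 lie on the member's own strand, where strand would not separate reads of shared stretches. The features at IRS1 lie outside that gene. Counts of features at IRS1 and IGF1R were at most 0.72% of the member's in any library.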
